A study of Mus musculus with 16 samples.

Results

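The comparison described here is the effect of tau in mice that carry both working copies of Ch25h, the gene of cholesterol 25-hydroxylase. It rests on 8 of the 16 libraries of the study: 4 libraries labelled Ch25h+/+ Tau+ and 4 labelled Ch25h+/+ Tau-, chosen by the genotype label alone, and it covers every gene of the count table. All 8 came from the brains of females aged 9 months, and the other 8 libraries, which lack Ch25h (Ch25h-/-, with and without tau), enter only where the spread or a difference between genotypes is named. The labels give frontal cortex as the tissue, while the design text of the series says hippocampus. Tau+ is read as carrying a tau transgene and Tau- as lacking it; the labels name neither the transgene, its promoter, its mutation nor its place in the genome, and no other allele or treatment is given. Nothing in the labels says whether the 4 libraries of a group came from separate animals, so the p-values measure the spread between these libraries, which may in part be technical. RNA was read in bulk, so more cells of a type and more RNA per cell cannot be told apart in any result below.

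Tau is a microtubule-binding protein of axons, and its aggregation in neurons is accompanied in mouse models by changes in microglia, the resident phagocytes of the brain, and in astrocytes. Type I interferons act through their receptor on the factor ISGF3, which holds STAT2 and IRF9 and binds the interferon-stimulated response element (ISRE) in the promoters of antiviral genes. Ch25h is itself an interferon-stimulated gene, and its product, 25-hydroxycholesterol, restrains cholesterol synthesis. Microglia near protein deposits lower their homeostatic genes in many models and switch on a programme that depends on the receptor Trem2 and its adaptor Tyrobp.

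The libraries held 15922498 to 24003425 counts in the Tau+ group and 18613344 to 23323733 in the Tau- group, and Spearman's rho between the libraries over the genes tested was 0.982 to 0.992. Levels are given as CPM, the count as a share of the library size, on library sizes scaled by the TMM method, and they are compared between libraries, not between genes of different length. Cortical markers (Cux2, Rorb, Fezf2 and Tle4) summed to 305 to 363 CPM in Tau+ and 318 to 359 CPM in Tau-. Hippocampal markers (Prox1, C1ql2, Fibcd1, Iyd and Lct) summed to 36.7 to 47.7 and 32.4 to 59.0 CPM. Tau+ replicate 1 stood apart in the dependence of its levels on gene length: Spearman's rho between exon length and the level relative to the mean of the 8 libraries was -0.38 there, against -0.07 to 0.25 in the other libraries. Choroid plexus markers ran from 14.4 to 2260 CPM lowest in a Tau- and highest in a Tau+ library, and the sum of 3 blood markers ran from 1.81 to 34.2 CPM. T cell markers stayed at or under 0.84 CPM and the B cell marker Cd79a at or under 0.99 CPM. Ch25h itself was read at 0.68, 1.26, 0.70 and 1.21 CPM in Tau+ and at 0.42, 0.55, 0.22 and 0.30 CPM in Tau-. The libraries did not overlap, and the log2 fold change of 1.39 ± 0.42 (SE) did not pass the test (adjusted p = 0.193, edgeR).

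Of 17736 genes tested with edgeR's quasi-likelihood test, 261 rose in Tau+ (1.47%) and 16 fell (0.0902%) at an adjusted p under 0.05, and these shares are the background for every list below. Irrespective of the test, the 4 Tau+ libraries lay above all 4 Tau- libraries for 690 genes (3.89%) and below them for 349 (1.97%). The median log2 fold change was 1.12 among the genes that rose and -0.70 among those that fell, against -0.01 over all genes tested. The fitted rise was at least 2-fold for 142 genes and at least 4-fold for 49. Of the 277 changed genes, 148 belonged to the gene lists used here, and 147 of those had risen. Without Tau+ replicate 1 there were 278 rises and 19 falls, without Tau+ replicate 4 there were 153 and 7, and without Tau- replicate 1 there were 168 and 8. Of the 153 rises found without Tau+ replicate 4, 152 were among the 261.

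**Figure D1:**
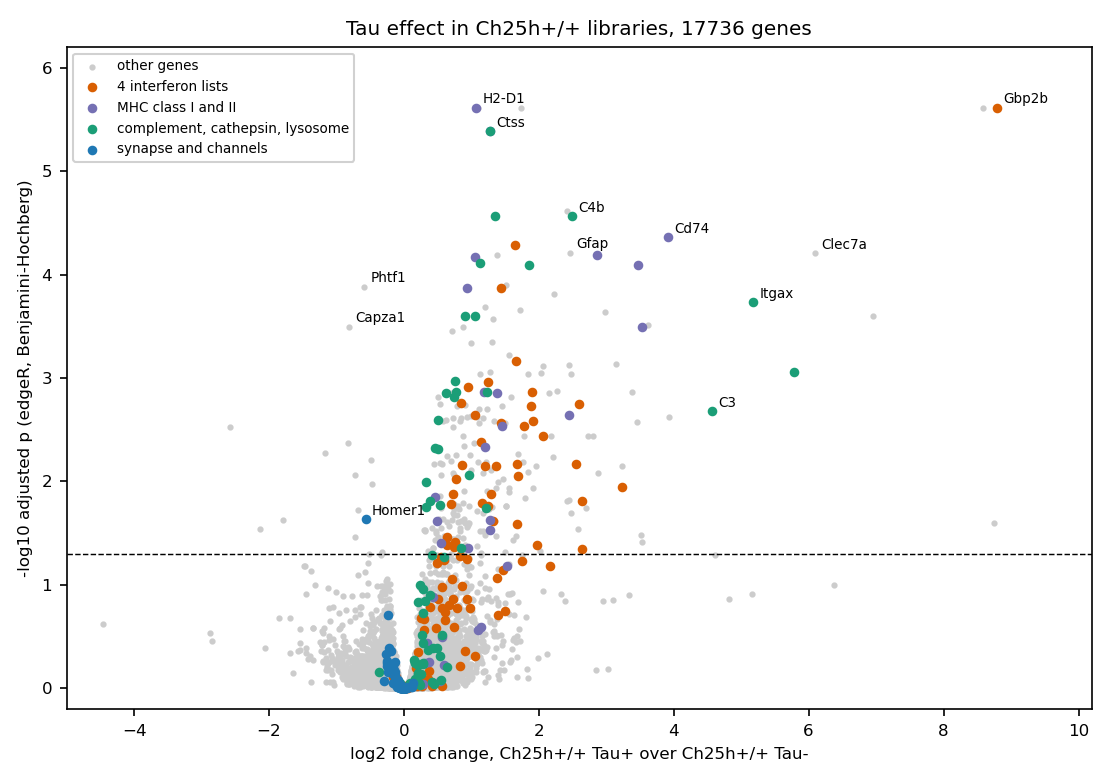
Log2 fold change of Tau+ over Tau- in Ch25h+/+ libraries (x axis) against -log10 of the adjusted p (y axis) for the 17736 genes tested; the dashed line is the threshold of 0.05, and colours mark members of interferon, MHC, complement, cathepsin and lysosome, and synapse and channel lists. The genes past the line lie mostly to the right (261 against 16), and Homer1 is the synaptic gene past it on the left.

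In the interferon pathway 22 of 42 tested antiviral effectors and 5 of 20 tested signalling factors rose. No interferon ligand gene was expressed enough to test, and none of the tested receptor genes passed. The genes of interferon-beta and interferon-gamma, Ifnb1 and Ifng, had 0 counts in all 8 libraries. Of the 13 ligand and receptor genes, 6 were expressed enough to test, all of them receptor chains, and none passed (median log2 fold change 0.15). In edgeR 3 had an unadjusted p under 0.05, and DESeq2 and limma-voom called 0. Ifnar1, a chain of the type I receptor, lay at 44.7 to 56.0 CPM in Tau+ and 49.3 to 59.4 CPM in Tau-, a log2 fold change of -0.03 ± 0.09 (SE).

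Among 20 tested STAT, JAK and IRF factors and their regulators, 5 rose and none fell, with a median of 0.30. Irf7, the factor that amplifies type I interferon production, read 11.5, 6.82, 5.86 and 5.98 CPM in Tau+ and 1.85, 2.68, 2.59 and 1.56 CPM in Tau-. All Tau+ libraries lay above all Tau- libraries, and replicate 1 lay far above the other Tau+ libraries (log2 fold change 1.78 ± 0.31 SE, adjusted p = 0.0029, edgeR). Usp18, which shuts off signalling at the interferon receptor, showed the same order, with 5.97 CPM in Tau+ replicate 1, 2.51 to 3.27 CPM in the other Tau+ libraries and 0.81 to 1.15 CPM in Tau- (1.89 ± 0.31 SE). The myeloid factors Irf8 (1.06 ± 0.18 SE) and Irf5 (0.69 ± 0.15 SE) rose too. Stat2 and Irf9, parts of ISGF3, did not pass, with log2 fold changes of 0.25 and 0.48. The count of 5 fell to 3 without Tau- replicate 1 or Tau- replicate 3, and Irf5 was also lost without Tau+ replicate 4.

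Cytosolic nucleic acid sensors gave 3 rises among 18 tested genes (median 0.56): Ddx58, which encodes the RNA sensor RIG-I, and Ifi204 and Ifi207, of the DNA-binding p200 family. The count was 6 with DESeq2 and 1 among genes with a mean of at least 50 counts. Ddx58 rose by 0.86 ± 0.16 (SE) and Ifi204 by 3.24 ± 0.65 (SE), the latter from at most 0.17 CPM in Tau- to 0.74 to 1.73 CPM in Tau+. Ifi207 lost its call without any one of the 8 libraries, and Ddx58 in a fit of the 8 libraries alone. The Ifi200 genes are near-copies of each other, so reads may be split between them. The sensor cGAS (Mb21d1, log2 fold change 0.36) and its adaptor STING (Tmem173, 0.61) did not pass the test. STING was read at 4.21 to 5.28 CPM in Tau+ and 2.67 to 4.14 CPM in Tau-, with no overlap.

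The antiviral effectors were the largest interferon group: 22 of 42 tested members rose, none fell, 41 of 42 had a positive log2 fold change, and the median was 1.27. The count was 14 among genes with a mean of at least 50 counts, 30 with DESeq2, and 15 without Tau- replicate 4. Ifit3, whose protein binds viral RNA complexes, was read at 33.1, 15.5, 15.7 and 18.4 CPM in Tau+ and at 4.02, 5.85, 7.85 and 4.38 CPM in Tau-. Ifit1, which binds RNA that lacks host cap methylation, was read at 13.1, 5.85, 5.25 and 6.49 CPM against 1.57, 2.02, 2.24 and 1.41 CPM. In both genes the groups did not overlap and Tau+ replicate 1 lay far above the other Tau+ libraries. Bst2, the tether that holds budding virus at the cell surface, read 15, 11.3, 7.11 and 9.94 CPM in Tau+ and 2.77, 2.73, 4.79 and 3.27 CPM in Tau- (1.66 ± 0.24 SE, adjusted p = 6.88e-04, edgeR). Lgals3bp, a secreted galectin ligand, rose from 11.6 to 21.4 CPM in Tau- to 39.7 to 55.6 CPM in Tau+. Ifitm3, which blocks viral fusion, rose by 1.25 ± 0.19 (SE). Isg15, the ubiquitin-like modifier, did not pass the test although its groups were apart: 9.36, 3.32, 2.93 and 2.43 CPM against 0.60, 1.64, 2.03 and 1.01 CPM (log2 fold change 1.75, adjusted p = 0.0582, edgeR). It passed with DESeq2, with no filter beyond 1 count, and in edgeR without Tau+ replicate 3 or Tau+ replicate 4.

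Interferon-inducible GTPases, which attack membranes of intracellular pathogens, gave 8 rises among 15 tested members, with 15 of 15 positive and a median of 0.93. Gbp2 read 8.44, 6.82, 7.11 and 6.96 CPM in Tau+ and 2.86, 3.61, 4.70 and 2.02 CPM in Tau-. The 4 Tau+ values were close to each other and all were above the Tau- range (1.14 ± 0.20 SE, adjusted p = 0.00416, edgeR). Gbp3 (1.20), Gbp9 (0.95), Irgm1 (0.85) and Iigp1 (1.25) rose by similar amounts. Gbp2b had no count in any Tau- library and 2.28, 2.99, 3.16 and 3.04 CPM in Tau+. The mean of Tau+ is at least 19.7-fold higher when each Tau- library is set at a floor of 3 counts. Unlike most of the list, Gbp2b also rose with tau in Ch25h-/- libraries (log2 fold change 6.47, adjusted p = 7.6e-05, edgeR). The median of the GTPase list there was 0.14, with -0.11 for Gbp2 and 0.12 for Gbp3. Gbp2 and Gbp2b are neighbours on chromosome 3 with similar sequences, so reads may be shared between them. The count of 8 fell to 5 without any one of Tau- replicates 1, 2 and 4.

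Promoters of 6 genes that rose are shown to make visible where the ISRE letters stand; they are the 250 bases upstream of the start of transcription in RefSeq on GRCm38.p6, written 5′ to 3′ on the gene's strand. Capitals mark each match to the ISRE letters, which are GAAA, any 2 bases and GAAA, or on the other strand TTTC, any 2 bases and TTTC. The genes are antiviral effectors (Ifit3 at chr19:34583279-34583528, plus strand, and Bst2 at chr8:71537473-71537722, minus strand), a chemokine (Cxcl10 at chr5:92348890-92349139, minus strand), a GTPase (Gbp2 at chr3:142620413-142620662, plus strand), the light chain of MHC class I (B2m at chr2:122147437-122147686, plus strand) and a protease of antigen loading (Ctss at chr3:95526536-95526785, plus strand).
Ifit3: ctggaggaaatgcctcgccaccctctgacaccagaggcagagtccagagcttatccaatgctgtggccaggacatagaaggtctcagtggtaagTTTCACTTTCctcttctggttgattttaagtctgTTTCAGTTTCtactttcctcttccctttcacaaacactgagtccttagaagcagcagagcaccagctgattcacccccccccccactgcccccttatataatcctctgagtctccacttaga
Bst2: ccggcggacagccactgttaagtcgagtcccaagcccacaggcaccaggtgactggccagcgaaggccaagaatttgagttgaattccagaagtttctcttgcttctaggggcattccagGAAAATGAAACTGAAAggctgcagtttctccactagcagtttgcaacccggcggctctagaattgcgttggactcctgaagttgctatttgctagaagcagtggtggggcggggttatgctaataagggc
Cxcl10: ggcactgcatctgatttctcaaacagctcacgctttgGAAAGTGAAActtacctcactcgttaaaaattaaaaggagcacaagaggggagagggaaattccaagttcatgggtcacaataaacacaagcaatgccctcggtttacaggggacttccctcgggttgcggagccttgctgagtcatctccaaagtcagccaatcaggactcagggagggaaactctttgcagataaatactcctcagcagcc
Gbp2: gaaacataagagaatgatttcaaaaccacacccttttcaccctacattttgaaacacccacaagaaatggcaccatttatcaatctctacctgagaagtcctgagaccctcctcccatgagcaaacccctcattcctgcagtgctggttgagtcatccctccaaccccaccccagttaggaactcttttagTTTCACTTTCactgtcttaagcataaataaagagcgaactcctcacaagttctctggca
B2m: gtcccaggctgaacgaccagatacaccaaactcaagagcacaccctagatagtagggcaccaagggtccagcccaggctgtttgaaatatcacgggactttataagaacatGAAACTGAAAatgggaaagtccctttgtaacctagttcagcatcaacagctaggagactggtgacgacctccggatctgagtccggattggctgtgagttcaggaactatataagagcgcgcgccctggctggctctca
Ctss: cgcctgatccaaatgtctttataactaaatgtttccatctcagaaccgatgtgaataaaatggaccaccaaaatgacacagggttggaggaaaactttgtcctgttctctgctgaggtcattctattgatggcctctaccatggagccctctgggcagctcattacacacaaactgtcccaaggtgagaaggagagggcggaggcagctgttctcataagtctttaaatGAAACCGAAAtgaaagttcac
The first base of each match lies 156 and 122 bases before the start in Ifit3, 130 and 124 in Bst2 (overlapping), 213 in Cxcl10, 59 in Gbp2, 139 in B2m and 21 in Ctss.

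A window of 300 bases (250 before to 50 after each RefSeq start) was searched on both strands in 195 of the 261 genes that rose, those matched by symbol. The ISRE letters were present in 36 of them (18.5%). Of the genes that fell, 2 of 11 held them (18.2%). The share was 3.62% among all tested genes with a promoter and 3.44% among all 32851 promoters of the table. The GAS element bound by STAT dimers (TTC, any 3 bases, GAA) was in 9.23% of the genes that rose and 8.23% of the tested genes, and the NF-kappaB letters (GGGA, any base, TTTCC) were in 1.54% (3 of 195) and 0.54%. These motifs can share bases with the ISRE. The match was in 6 of 6 GTPases that rose, but also in 10 of 10 tested GTPases whether or not they rose. It was in 8 of 15 antiviral effectors that rose and 13 of 31 of all those tested. Among the members that rose it was in 4 of 13 reactive astrocyte, 3 of 19 disease-associated microglia, 0 of 5 complement and 0 of 6 lysosomal genes. Among all tested members of these lists it was in 6 of 27, 3 of 26, 1 of 14 and 1 of 32. A match is a description of the letters and does not show that a factor was bound.

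**Figure D2:**
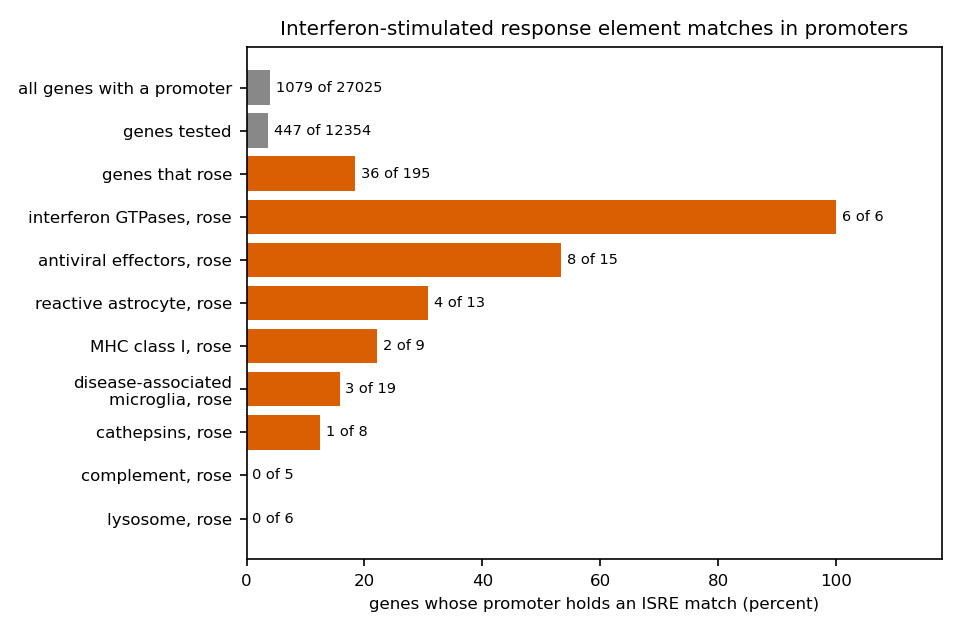
Percent of genes whose promoter window of 300 bases holds the ISRE letters on either strand (x axis), for all genes with a promoter, the tested genes, the genes that rose in Tau+, and members of single lists that rose; labels give the numbers behind each bar. The GTPases (6 of 6) and antiviral effectors (8 of 15) stand above the tested genes (447 of 12354), while the 5 complement and 6 lysosome members that rose hold none.

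MHC class I molecules show peptides from inside the cell to CD8 T cells. Of 24 tested genes of class I and peptide loading, 10 rose and none fell (median 0.51); of the 10, 6 were highest in Tau+ replicate 1 and 5 lowest in Tau+ replicate 4. H2-K1, a classical heavy chain, read 78.5, 90.1, 85.0 and 65.7 CPM in Tau+ and 32.5, 39.9, 45.1 and 36.6 CPM in Tau-. H2-D1, the other classical chain, read 120, 122, 132 and 111 CPM against 51.3, 62.6, 59.7 and 57.8 CPM (1.07 ± 0.09 SE, adjusted p = 2.43e-06, edgeR). B2m, the light chain they share, read 138, 128, 122 and 110 CPM against 60.9, 61.1, 73.4 and 65.5 CPM. In all 3 genes the groups did not overlap and the spread within groups was small beside the gap. The peptide transporter Tap1 (1.19 ± 0.18 SE) and the immunoproteasome subunit Psmb8 (1.38 ± 0.22 SE) rose as well, and the loading factor Tapbp rose by 0.46 ± 0.10 (SE). Class I heavy chains are near-copies of each other, so the division of reads among H2-K1, H2-D1 and H2-Q4 is uncertain. Without Tau- replicate 1 or Tau- replicate 2, 6 members were called in place of 10; Tapbp was also lost without Tau+ replicate 4.

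MHC class II genes, which professional antigen-presenting cells use to show extracellular peptides to CD4 T cells, had larger log2 fold changes and a wider spread between Tau+ libraries. Of 13 tested genes 9 rose and 13 of 13 had a positive log2 fold change, with the highest median of any list used here (1.45). Cd74, the invariant chain that guides class II molecules to the endosome, was read at 26.4, 134, 95.8 and 110 CPM in Tau+ and at 6.10, 8.10, 5.74 and 4.53 CPM in Tau-. H2-Aa, the alpha chain, was read at 5.97, 37.9, 23.5 and 27.4 CPM against 1.99, 2.84, 1.94 and 1.51 CPM. H2-Ab1, its partner, was read at 6.59, 34.6, 19.2 and 22.6 CPM against 1.48, 2.24, 2.20 and 1.56 CPM. Tau+ replicate 1 was the lowest Tau+ library for all 3 genes and still lay above every Tau- library. The log2 fold changes were 3.91 ± 0.42, 3.52 ± 0.47 and 3.47 ± 0.41 (SE). H2-Eb1 rose by 2.86 ± 0.32 (SE), and H2-DMb1 (1.45) and H2-Oa (2.45) rose by less. Ciita, the master regulator of class II transcription, was read at 1.11, 3.74, 3.16 and 2.24 CPM in Tau+ and 1.48, 1.97, 1.51 and 1.91 CPM in Tau-. Its groups overlapped, and it did not pass (0.60 ± 0.31 SE, adjusted p = 0.591, edgeR). Ctss, the protease that removes the invariant chain, read 103, 90.7, 96.4 and 124 CPM against 41.4, 39.0, 44.5 and 45.1 CPM (1.28 ± 0.11 SE, adjusted p = 4.1e-06, edgeR).

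Complement genes, whose products tag material for uptake and in the brain also tag synapses, gave 9 rises among 21 tested members (median 0.55). The 3 chains of C1q, which starts the classical pathway, rose together: C1qa by 1.35 ± 0.14, C1qb by 1.12 ± 0.13 and C1qc by 1.06 ± 0.14 (SE). C1qa read 124, 99.96, 97.2 and 146 CPM in Tau+ and 46.3, 40.1, 43.8 and 53.2 CPM in Tau-. C4b, the next component, read 109, 116, 168 and 217 CPM against 26.7, 33.4, 27.9 and 20.2 CPM. C3, the central component, read 1.35, 3.20, 7.58 and 27.5 CPM against 0.51, 0.16, 0.82 and 0.10 CPM. All 3 genes kept the groups apart, but C3 spread widely within Tau+. The receptors C3ar1 (1.86 ± 0.22 SE) and Itgax, the alpha chain of complement receptor 4 (5.18 ± 0.65 SE), rose. So did the inhibitors Serping1 (1.21), which blocks C1, and Clu (0.50). Itgam, the alpha chain of complement receptor 3, read 6.44 to 7.51 CPM in Tau+ and 3.5 to 5.78 CPM in Tau- and did not pass (0.44, adjusted p = 0.409, edgeR). The count lay between 8 and 9 without any one of the 8 libraries, and Serping1 was the call lost, without Tau+ replicate 4, Tau- replicate 1 or Tau- replicate 4.

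Microglial markers shifted unevenly. The microglial markers P2ry12, Tmem119, Cx3cr1 and Csf1r summed to 233 to 285 CPM in Tau+ and 193 to 207 CPM in Tau-, and 2 of the 4 rose, Csf1r and Cx3cr1. Cx3cr1, the fractalkine receptor, overlapped between the groups (0.51 ± 0.11 SE) and lost its call without any one of Tau+ replicates 3 and 4 and Tau- replicates 1, 2 and 4, and in a fit of the 8 libraries alone. P2ry12, the ADP receptor of resting microglia, read 27.0, 28.8, 29.0 and 27.1 CPM in Tau+ and 27.9, 22.1, 25.9 and 23.9 CPM in Tau- (0.17 ± 0.13 SE, adjusted p = 0.825, edgeR). Tmem119 had a log2 fold change of 0.02 ± 0.09 (SE). Csf1r, the survival receptor, rose by 0.50 ± 0.08 (SE) and the lineage factor Spi1 by 0.99 ± 0.14. Over the list of 23 tested homeostatic genes 6 rose, none fell, and the median was 0.26. That count fell to 3 without any one of Tau+ replicates 3 and 4 and Tau- replicates 1, 2 and 4. The part of cell number in these values was not tested.

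The disease-associated programme of microglia gave 21 rises among 31 tested genes and a median of 0.93, with no member falling. Trem2, the lipid and apolipoprotein receptor on which the programme depends, read 31.1, 23.7, 27.6 and 41.1 CPM in Tau+ and 14.5, 13.3, 12.2 and 13.3 CPM in Tau-. Its adaptor Tyrobp read 18.0, 15.5, 17.5 and 25.3 CPM against 7.30, 7.0, 7.08 and 7.96 CPM. Both were highest in Tau+ replicate 4, and the 4 Tau- libraries lay close together. The largest fitted log2 changes were in genes near their detection floor in Tau-. Clec7a, which encodes the beta-glucan receptor Dectin-1, read 4.25, 6.02, 7.39 and 10.6 CPM against 0.05, 0.22, 0.09 and 0.05 CPM. Cst7, a cystatin that inhibits lysosomal cysteine proteases, read 6.04, 5.76, 4.97 and 8.5 CPM against 0.28, 0, 0.04 and 0.10 CPM. The log2 fold changes of 6.10 ± 0.68 and 5.79 ± 0.85 (SE) rest on very few Tau- counts. Lyz2, the lysozyme of myeloid cells, rose by 2.98 ± 0.38 (SE), to 86.4 CPM in Tau+ replicate 4 and 25.2 to 40.1 CPM in the other Tau+ libraries. Apoe rose by 0.64 ± 0.12 (SE).

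Of 17 tested Ms4a, Trem and Clec genes 6 rose and 17 of 17 were positive (median 0.85), with 3 rises among genes with a mean of at least 50 counts. Trem2, Tyrobp and Clec7a were among the 6 and are also counted in the disease-associated list. Ms4a6d rose by 1.55 ± 0.32 (SE), a call lost without Tau+ replicate 4 or Tau- replicate 1, and Ms4a7 by 1.83 ± 0.35 (SE). Ms4a7, which also marks macrophages at brain borders, was the single member of the border macrophage list to pass among 11 tested, and there were 2 without Tau- replicate 2 and with DESeq2 or limma-voom. The defining border marker Mrc1 read 9.42, 6.27, 4.42 and 5.79 CPM in Tau+ and 4.2, 7.6, 4.27 and 1.41 CPM in Tau-, with overlap (0.56, adjusted p = 0.727, edgeR). Of 7 tested Fc receptor genes, the inhibitory Fcgr2b (0.95 ± 0.19 SE) and the high-affinity Fcgr1 (0.88 ± 0.21 SE) rose. Fcgr1 lost its call without any one of Tau+ replicates 2, 3 and 4 and Tau- replicates 1, 3 and 4.

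Of 18 tested Toll-like receptor genes and adaptors 5 rose, 18 of 18 were positive, and the median was 0.63; limma-voom called 9, and edgeR 3 among genes with a mean of at least 50 counts. Tlr2, the receptor for bacterial lipopeptides, read 3.51, 4.25, 4.09 and 7.33 CPM in Tau+ and 1.20, 1.26, 1.12 and 1.01 CPM in Tau-. Its co-receptors Cd14 (1.31 ± 0.28 SE) and Tlr1 (1.62 ± 0.39 SE) rose. Ly86 (1.20 ± 0.19 SE) and Unc93b1, the chaperone that carries nucleic acid-sensing receptors to endosomes (0.88 ± 0.12 SE), made up the rest. The count was 3 without Tau+ replicate 4 or Tau- replicate 4; Cd14 was also lost without Tau- replicate 1, and Tlr1 without Tau+ replicates 2 or 3 or Tau- replicate 2. In the list of 13 tested inflammasome and interleukin-1 genes, Gsdmd alone passed (0.77 ± 0.18 SE), and in the list of 15 tested TNF and NF-kappaB genes Tnfrsf1a alone passed (0.74 ± 0.16 SE). Gsdmd lost its call without any one of Tau+ replicates 1, 3 and 4 and Tau- replicates 1, 2 and 4, and Tnfrsf1a without Tau+ replicate 4 or Tau- replicates 1, 2 or 4; 2 genes of the TNF list passed without Tau- replicate 3. In the TNF list DESeq2 called 2 and limma-voom 3, and in the inflammasome list limma-voom called 2. Il1b stayed under 0.89 CPM in all 8 libraries (1.33 ± 0.47 SE, adjusted p = 0.282, edgeR), and Tnf was too low to test.

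Chemokine genes gave 5 rises among 17 tested (median 0.65), all at low levels, and 8 with no filter beyond 1 count and 1 among genes with a mean of at least 50 counts. Cxcl10, an interferon-induced attractant of T cells, read 4.5, 2.69, 2.14 and 2.57 CPM in Tau+ and 0.51, 0.60, 0.39 and 0.10 CPM in Tau- (2.87 ± 0.56 SE). Ccl6 read 3.63, 5.47, 5.58 and 9.15 CPM against 1.16, 0.93, 2.16 and 1.06 CPM (2.15 ± 0.34 SE). Cxcl10 was highest in Tau+ replicate 1 and Ccl6 in Tau+ replicate 4. Ccl4 had 0 to 2 counts in each Tau- library and 0.80 to 1.49 CPM in Tau+ (adjusted p = 0.00238, edgeR). Cxcl16 (1.58) and Cxcl5 (2.42) rose too, Cxcl5 with its call lost without Tau+ replicate 4 or Tau- replicate 1. Of 4 tested T and NK cell genes, 3 B cell genes and 3 neutrophil and monocyte genes, edgeR, DESeq2 and limma-voom called 0, and 1 T and NK cell gene was lower at an unadjusted p under 0.05. Few of these genes could be tested: Cd3e, Cd3d, Cd8a and Cd79a were all under the level needed. The sum of 3 T cell markers, none of them testable, was 0.43, 0.50, 0.37 and 0.84 CPM in Tau+ and 0.18, 0.38, 0.13 and 0.15 CPM in Tau-. The groups overlapped in 1 Tau- library, replicate 2, and the part of these cells in the chemokine values was not tested.

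Among leukocyte inhibitory receptors 4 of 12 tested genes rose (median 0.52), 7 with limma-voom and 2 in a fit of the 8 libraries alone. Lag3, which binds class II MHC and in the brain is made by microglia and neurons, read 29.8, 29.5, 26.2 and 38.6 CPM in Tau+ and 11.3, 8.75, 8.59 and 8.62 CPM in Tau- (1.73 ± 0.15 SE, adjusted p = 2.43e-06, edgeR). Cd22, a brake on phagocytosis, rose by 3.46 ± 0.59 (SE) from at most 0.30 CPM, and Havcr2 and Lair1 rose by 0.81 and 0.75. The count was 2 without Tau+ replicate 4, and Havcr2 lost its call without any one library other than Tau+ replicates 1 and 2. In the integrin and adhesion list 4 of 16 rose: Itgax, Itgb2 (1.27 ± 0.19 SE), Cd84 (2.22 ± 0.28 SE) and Itgb5 (0.45 ± 0.09 SE). Itgb5 was lost without Tau+ replicate 4 or Tau- replicates 1 or 2. Vcam1 did not pass, with a log2 fold change of 0.29.

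**Figure D3:**
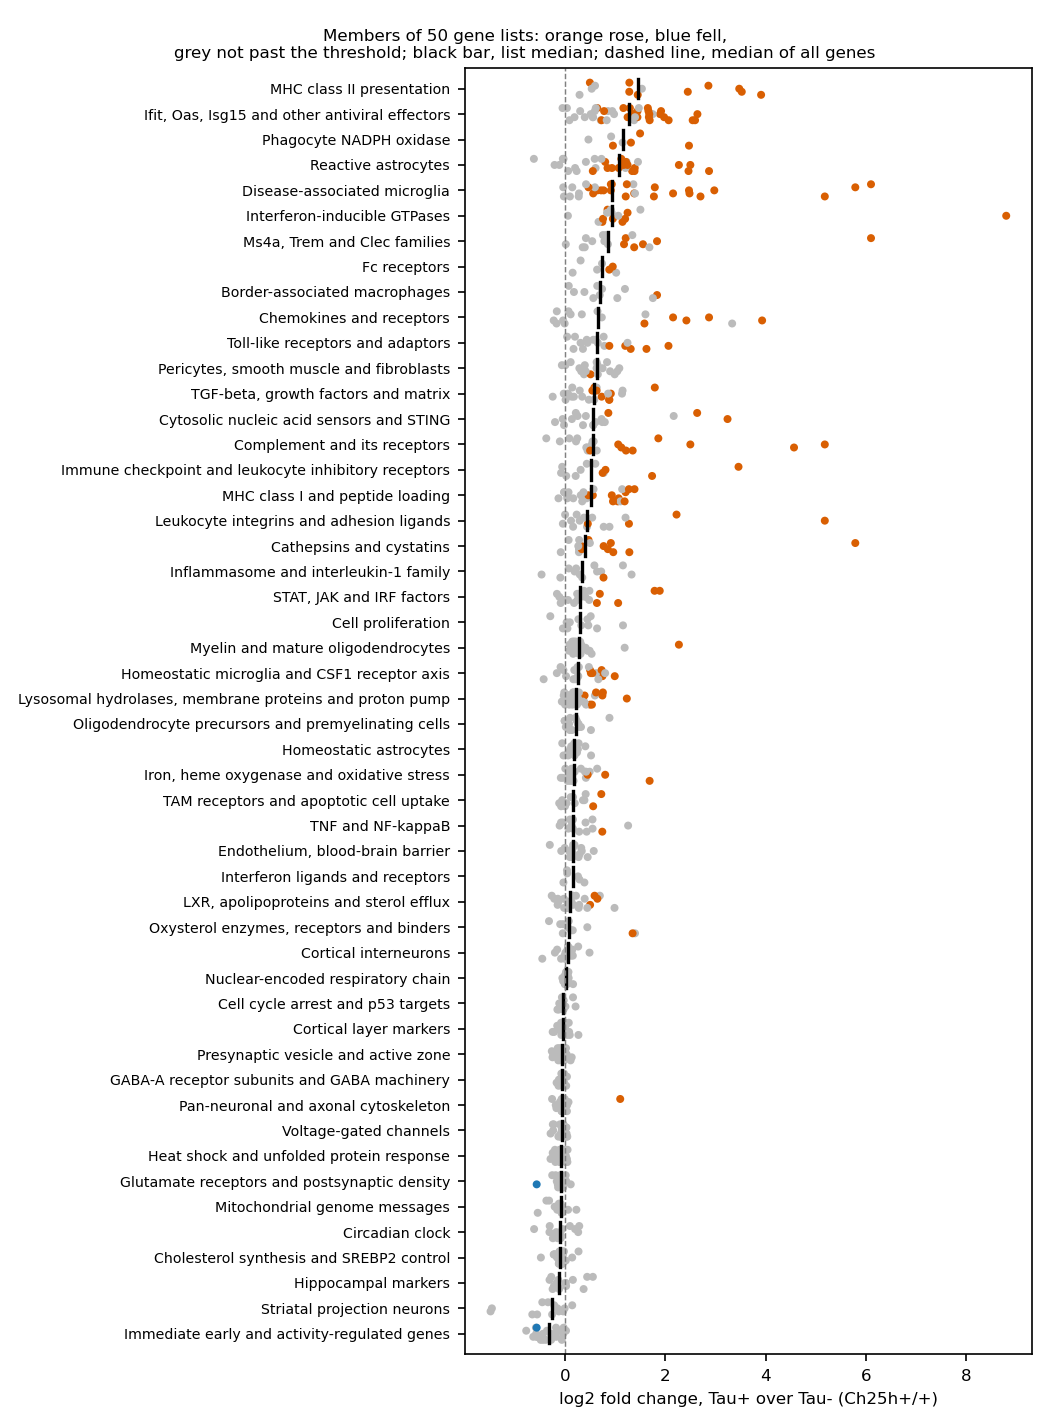
Log2 fold change of Tau+ over Tau- (x axis) of every tested member of 50 gene lists (rows, ordered by median); orange points rose, blue points fell, grey points did not pass the test, black bars are list medians and the dashed line is the median of all genes. Class II, antiviral effector, NADPH oxidase, reactive astrocyte and disease-associated microglia lists have medians of 0.93 to 1.45, and the synaptic, channel and layer lists lie near 0.

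Lysosomal genes were read in 2 lists. Of 16 tested cathepsins and cystatins 9 rose (median 0.40). Among these, Ctsd, Ctsz, Ctsl and Cst7 are also counted in the disease-associated list and Ctss in the class II list. Ctsd, the main aspartic protease, read 336, 304, 275 and 420 CPM in Tau+ and 186, 184, 203 and 211 CPM in Tau-. Ctsz rose by 0.91 ± 0.12, Ctsh by 0.96 ± 0.19 and Ctsl by 0.47 ± 0.08 (SE). Ctsb, which is abundant in every brain cell type, read 661 to 754 CPM against 541 to 603 CPM and did not pass (0.28 ± 0.09 SE, adjusted p = 0.185, edgeR). Of 38 tested genes of lysosomal hydrolases, membrane proteins and the proton pump 7 rose (median 0.21), and 11 with limma-voom. Cd68, a membrane glycoprotein of phagocytes, read 14.9, 15.6, 15.4 and 24.5 CPM against 7.72, 6.89, 7.81 and 7.56 CPM. Grn, progranulin, rose by 0.62 ± 0.10 (SE), and Npc2, which hands cholesterol out of the lysosome, by 0.50 ± 0.08 (SE). Lamp1, carried by lysosomes of all cells, did not pass in edgeR (0.24 ± 0.07 SE, adjusted p = 0.0992), but DESeq2 and limma-voom called it.

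The phagocyte NADPH oxidase, which makes superoxide, gave 4 rises among 7 tested genes and a median of 1.15, with 2 rises among genes with a mean of at least 50 counts. Its catalytic subunit Cybb read 1.6, 5.13, 5.02 and 8.64 CPM in Tau+ and 1.02, 0.93, 1.21 and 0.50 CPM in Tau-, and the membrane partner Cyba read 13.8, 8.5, 8.41 and 13.6 CPM against 3.88, 4.21, 4.70 and 4.99 CPM. The regulators Ncf4 (1.5) and Rac2 (0.95) rose, but Ncf4 lost its call without any one of the 8 libraries and Rac2 without any one of Tau+ replicates 3 and 4 and Tau- replicates 2 and 4, where 2 members were called. Of 13 tested genes of apoptotic cell uptake, the receptor Axl (0.56 ± 0.11 SE) and the bridging protein gene Pros1 (0.72 ± 0.12 SE) rose. The sister receptor Mertk had a log2 fold change of 0.03 and the ligand gene Gas6 of 0.11, and neither passed. In the iron and oxidative stress list 3 of 21 rose: Slc11a1, the phagosomal metal transporter (1.69 ± 0.31 SE), Cp, ceruloplasmin (0.80 ± 0.17 SE), and the peroxiredoxin Prdx6 (0.45 ± 0.09 SE). DESeq2 and limma-voom each called 5 of that list. Cp was lost without Tau+ replicate 4, Tau- replicate 1 or Tau- replicate 4, and Axl and Prdx6 in a fit of the 8 libraries alone.

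Reactive astrocyte genes gave 17 rises among 33 tested (median 1.07). Gfap, the intermediate filament of astrocytes, read 473, 637, 627 and 1312 CPM in Tau+ and 131, 161, 140 and 122 CPM in Tau- (2.46 ± 0.27 SE, adjusted p = 6.13e-05, edgeR). Serpina3n, a secreted serine protease inhibitor, read 22.1, 22.3, 39.3 and 81.3 CPM against 6.98, 7.88, 11.1 and 8.26 CPM. Vim read 70.0, 54.7, 77.9 and 195 CPM against 32.7, 37.1, 46.9 and 35.1 CPM. All 3 were highest in Tau+ replicate 4 and kept the groups apart. Aspg rose by 1.34 ± 0.23 (SE). The reactive list also holds interferon and MHC genes, so it is not separate from the lists above. Without Tau+ replicate 4 or Tau- replicate 4, 10 members were called, and 11 without Tau- replicate 1, where Vim was lost.

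Of 18 tested homeostatic astrocyte genes edgeR called 0 (median 0.18), with 5 at an unadjusted p under 0.05, 1 called by DESeq2 and 3 by limma-voom. Slc1a2, the main glutamate transporter, read 1595, 2842, 3193 and 2708 CPM in Tau+ and 2173, 2377, 2058 and 2154 CPM in Tau-. Replicate 1 was the lowest of all 8 libraries and the other 3 Tau+ libraries were the highest. Aqp4, the water channel of astrocyte endfeet, read 80.5, 126, 113 and 124 CPM against 88.3, 82.5, 81.7 and 57.6 CPM, again with replicate 1 lowest in Tau+ and the other 3 above all Tau- libraries. Without Tau+ replicate 1, edgeR called 3 members of the list, Slc1a2 and Aqp4 among them.

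**Figure D4:**
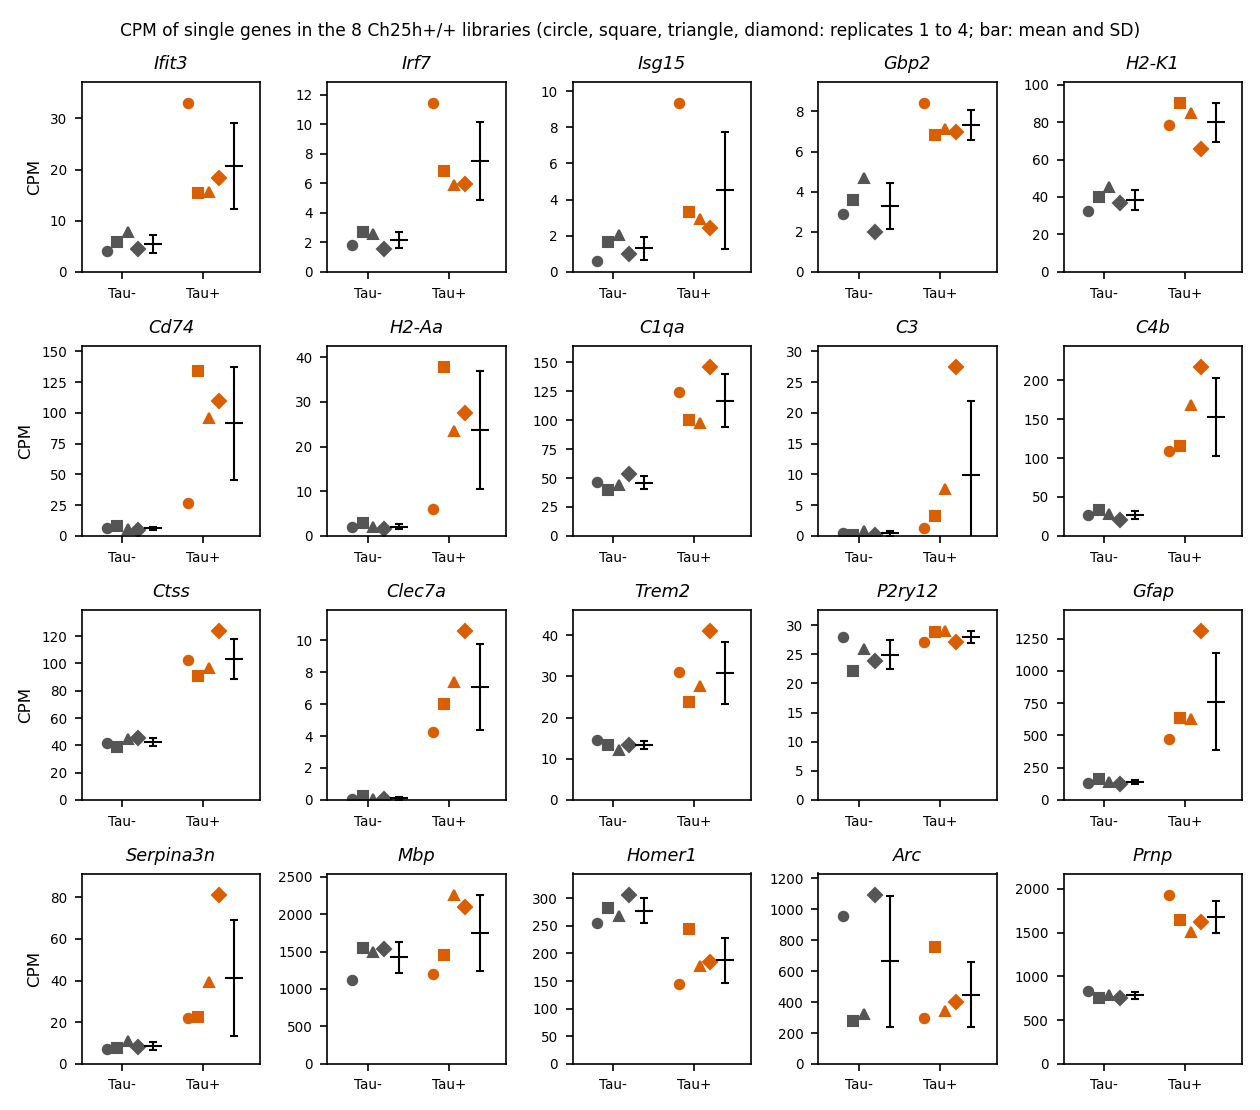
CPM (y axes from 0, a separate scale for each gene) of 20 genes in the 4 Tau- (grey) and 4 Tau+ (orange) libraries; the marker shape gives the replicate and the bar the mean with its SD. Ifit3, Irf7 and Isg15 are highest in Tau+ replicate 1, C3, Gfap and Serpina3n are highest in Tau+ replicate 4, and P2ry12 and Mbp overlap between the groups.

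In the list of 11 tested oxysterol enzymes, receptors and binders, to which Ch25h belongs (log2 fold change 1.39, called by limma-voom alone), Gpr183 was the one that rose in edgeR. It encodes EBI2, the receptor for a dihydroxycholesterol made from 25-hydroxycholesterol, and it read 1.91, 2.23, 2.37 and 3.04 CPM in Tau+ and 1.20, 0.985, 0.949 and 0.605 CPM in Tau- (1.35 ± 0.30 SE, adjusted p = 0.024, edgeR). Its call was lost without Tau+ replicate 4 or any one of Tau- replicates 2, 3 and 4. Cyp7b1, which hydroxylates 25-hydroxycholesterol, had a log2 fold change of 0.15. Of 25 tested cholesterol synthesis genes, edgeR called 0 and the median was -0.09, with 22 of 25 negative and 1 higher and 3 lower at an unadjusted p under 0.05 and 0 by DESeq2 or limma-voom. Hmgcs1, the synthase that makes HMG-CoA, read 154 to 200.1 CPM in Tau+ and 165 to 205 CPM in Tau-. Of 26 tested LXR targets and lipid carriers 3 rose, Apoe, Apod (0.59 ± 0.14 SE) and Clu, and DESeq2 and limma-voom each called 5. Abca1, the cholesterol exporter, read 27.1, 45.5, 57.6 and 56.3 CPM against 29.0, 29.1, 30.1 and 27.3 CPM; 3 Tau+ libraries lay above all Tau- libraries and replicate 1 lay below all of them (0.69 ± 0.17 SE, adjusted p = 0.0501, edgeR). Without Tau+ replicate 1 it passed. Apod lost its call without any one of Tau+ replicates 1 and 4 and Tau- replicates 1 and 4, and 1 cholesterol synthesis gene passed without Tau- replicate 3.

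Of 25 tested myelin and oligodendrocyte genes 25 had a positive log2 fold change (median 0.27), but Serpina3n, which reactive oligodendrocytes and astrocytes share, was the one that passed in edgeR, and DESeq2 and limma-voom each called 2. Mbp read 1197, 1459, 2258 and 2096 CPM in Tau+ and 1116, 1543, 1499 and 1530 CPM in Tau-, with overlap (0.30 ± 0.19 SE). Myelin transcripts were high together in Tau+ replicates 3 and 4 and low in replicate 1. Without Tau+ replicate 1 or Tau+ replicate 2, 2 members passed. Of 15 tested precursor genes 0 passed in edgeR (median 0.21), 1 was higher at an unadjusted p under 0.05, DESeq2 called 1 and limma-voom 0, and Pdgfra overlapped between the groups.

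In the list of pericyte, smooth muscle and fibroblast genes 1 of 19 rose, Vtn, while the median was 0.63. The fibroblast markers Col1a1 and Dcn summed to 32.5 to 68.8 CPM in Tau+ and 21.1 to 38.5 CPM in Tau-, and the mural markers Pdgfrb and Acta2 to 43.2 to 48.4 and 28.6 to 36.1 CPM. DESeq2 called 3 of the list and limma-voom 4; Vtn lost its call without any one of Tau+ replicates 1 and 4 and Tau- replicates 1, 3 and 4, and 2 members passed without Tau+ replicate 3. Of 18 tested endothelial genes 0 passed in edgeR (median 0.16), 4 were higher at an unadjusted p under 0.05, DESeq2 called 0 and limma-voom 1, and without Tau+ replicate 1 edgeR called 1. Growth factor and matrix genes gave 8 rises among 23 tested (median 0.58). Tgfb1 rose by 0.88 ± 0.15 (SE), its receptor Tgfbr2 by 0.58 ± 0.10, the tetraspanin Cd9 by 0.91 ± 0.15 and the matrix protease Mmp2 by 0.88 ± 0.20. Spp1, osteopontin, read 23.7, 19.5, 18.3 and 46.7 CPM in Tau+ and 7.21, 9.35, 9.36 and 5.34 CPM in Tau-. The growth and matrix count fell to 3 without Tau+ replicate 4, Tau- replicate 1 or Tau- replicate 4, and to 4 without Tau+ replicate 2; Mmp2 was lost in each of these cases and Spp1 in the first 3. The part of vascular cells carried with the tissue was not tested.

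The neuronal lists had small median log2 fold changes, and most had more negative than positive members. The 8 lists pooled here (pan-neuronal, glutamate receptor and postsynaptic, presynaptic, GABA, interneuron, ion channel, cortical layer and hippocampal genes) held 165 symbols, of which 164 were tested. Of these, 1 rose (Prnp), 1 fell (Homer1), and the median log2 fold change was -0.05. At an unadjusted p under 0.05 there were 3 higher and 9 lower, and DESeq2 and limma-voom each called 1 higher and 1 lower. The log2 fold change was negative for 22 of 25 postsynaptic, 21 of 25 presynaptic, 14 of 16 GABA, 19 of 24 pan-neuronal and 19 of 25 ion channel genes, against 9258 of all 17736 genes tested. It was negative for 12 of 19 cortical layer, 8 of 15 hippocampal and 6 of 19 interneuron genes. The immediate early list (median -0.32, 23 of 24 negative) and the striatal list (median -0.26, 12 of 13 negative) are not in this pool. Rbfox3, the nuclear marker of neurons, read 339 to 394 CPM in Tau+ and 358 to 392 CPM in Tau-. Syn1, a synaptic vesicle protein, had a log2 fold change of -0.02 ± 0.08 (SE), and Gad1, which makes GABA, of 0.02 ± 0.11 (SE). Dlg4, which encodes the scaffold PSD-95, read 786, 857, 831 and 814 CPM against 890, 928, 882 and 908 CPM, without overlap, and did not pass (-0.13 ± 0.07 SE, adjusted p = 0.557, edgeR). The upper-layer marker Cux2 (-0.07) and the deep-layer markers Fezf2 (0.01) and Bcl11b (-0.16) did not pass either. In edgeR 1 hippocampal gene passed without Tau+ replicate 1.

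Homer1, a postsynaptic scaffold whose short form is induced by activity, read 145, 244, 177 and 184 CPM in Tau+ and 255, 282, 267 and 306 CPM in Tau-. All Tau+ libraries lay below all Tau- libraries, and the log2 fold change was -0.57 ± 0.13 (SE, adjusted p = 0.0231, edgeR). The call was lost without any one of Tau+ replicates 1, 3 and 4 and Tau- replicates 2 and 4, and in a fit of the 8 libraries alone. In the list of 24 immediate early and activity-regulated genes, 23 had a negative log2 fold change (median -0.32). Homer1 was the one that passed in edgeR, with 2 called without Tau+ replicate 2. DESeq2 called 2 and limma-voom 1, and edgeR 2 with no filter beyond 1 count and 0 in the 8 libraries alone. Arc, which is induced at active synapses, read 300, 755, 340 and 398 CPM in Tau+ and 959, 277, 322 and 1095 CPM in Tau-. Fos read 59.3, 102, 40.9 and 62.9 CPM against 146, 58.6, 42.7 and 98.2 CPM. Both overlapped widely: Tau- replicates 1 and 4 were high, and Tau- replicates 2 and 3 were near the Tau+ range.

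Markers of striatal projection neurons had a median of -0.26 over 13 tested genes. In this list edgeR called 0, with 6 lower at an unadjusted p under 0.05, DESeq2 called 3 and limma-voom 1, and edgeR called 2 without Tau- replicate 2. The markers Drd1, Drd2 and Adora2a summed to 12.2 to 16.3 CPM in Tau+ and 14.7 to 41.9 CPM in Tau-, highest in Tau- replicate 3. In edgeR 0 of 26 chaperone and unfolded protein response genes passed (median -0.08, 3 lower at an unadjusted p under 0.05, 0 by DESeq2 or limma-voom), and Hspa5, the chaperone of the endoplasmic reticulum, had a log2 fold change of -0.19. In edgeR 0 of 15 clock genes passed (median -0.09), with 4 lower at an unadjusted p under 0.05, 1 called by DESeq2 and 0 by limma-voom. For 13 mitochondrial messages (median -0.09), 22 nuclear respiratory chain genes (0.02) and 11 p53 targets (-0.04), edgeR, DESeq2 and limma-voom called 0, and 0 had an unadjusted p under 0.05. Proliferation genes had a median of 0.29 with 0 of 12 called by edgeR, DESeq2 or limma-voom and 3 higher at an unadjusted p under 0.05, and Top2a read 0.70 to 0.93 CPM against 0.14 to 0.49 CPM.

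Genes outside all lists made up 129 of the 277. Among those that rose with the smallest p were further leukocyte genes. Ptprc, which encodes the pan-leukocyte phosphatase CD45, read 5.17, 7.32, 8.55 and 8.08 CPM in Tau+ and 2.96, 2.90, 2.85 and 3.02 CPM in Tau-. Mpeg1, the pore-forming perforin-2 of macrophages, read 49.0, 55.2, 63.7 and 95.4 CPM against 23.8, 20.6, 24.8 and 23.1 CPM. Cd52, a surface glycopeptide of leukocytes, rose by 2.41 ± 0.24, the motor protein Myo1f by 1.55 ± 0.22, the Src-family kinase Fgr by 3.14 ± 0.45 and the receptor Csf3r by 1.13 ± 0.17 (SE). Slc15a3, a lysosomal peptide transporter, rose by 1.84 ± 0.27 (SE), and the adhesion receptor Ly9 by 3.38 ± 0.53 (SE) from at most 0.42 CPM in Tau-.

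Some genes in this set had no count in Tau-, and the spread of their levels in Tau+ differed. Folds against the floor use the mean of Tau+. Lamr1-ps1, a processed pseudogene, read 2.52, 2.44, 2.32 and 2.62 CPM in Tau+ with no count in Tau-, at least 17.0-fold higher against the floor. It lies on chromosome 2 at 131904086 to 131904959 (GRCm38), beside Prnp at 131909928 to 131938429. Prnp read 1935, 1641, 1505 and 1627 CPM in Tau+ and 839, 748, 789 and 754 CPM in Tau- (1.10 ± 0.09 SE), and its log2 fold change was 1.10 in Ch25h-/- libraries as well. The lincRNA 4930590L14Rik had no count in Tau- and 0.67 to 1.12 CPM in Tau+, at least 5.43-fold higher. Its log2 fold change in Ch25h-/- libraries was 7.54. Hist1h2al, a histone pseudogene, had no count in Tau- and varied widely in Tau+, from 0.56 to 4.16 CPM (12 to 89 counts). Its Tau+ mean was at least 19.0-fold higher. The call was lost without any one of Tau+ replicate 4 and the 4 Tau- libraries. Mapt, the mouse tau gene, read 468 to 560 CPM in Tau+ and 526 to 591 CPM in Tau- (-0.07 ± 0.07 SE).

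Of the 16 genes that fell, 9 lay on chromosome 3 between 95.1 and 127.6 Mb, beside 20 rises among the 906 tested genes of that chromosome (2.21%). The median exon length was 6668 bases for the genes that fell, 3967 for all tested and 3439 for those that rose. Levels fell with gene length in Tau+ replicate 1 (Spearman's rho across genes -0.38), and without that library 19 genes fell, 11 of them among the 16. The part of length in the falls was not tested. Phtf1, a membrane protein gene at 104 Mb, read 31.4, 31.5, 29.2 and 30.5 CPM in Tau+ and 48.0, 42.9, 45.4 and 47.7 CPM in Tau- (-0.59 ± 0.07 SE, adjusted p = 1.3e-04, edgeR). Capza1, an actin-capping subunit at 104.8 Mb, read 11.0, 12.8, 15.1 and 13.4 CPM against 25.1, 21.4, 23.6 and 22.5 CPM. Both had narrow spreads in both groups. Mettl14, of the enzyme that methylates RNA at adenosine, fell by 0.73 and the heparan sulfate enzyme Ndst3 by 0.82 on the log2 scale, and they lie at 123.4 and 123.5 Mb. Zgrf1 fell by 1.16 at 127.6 Mb, next to Alpk1, the kinase that senses bacterial heptose sugars, which rose by 2.02 ± 0.30 (SE) at 127.7 Mb. Several risers named above share this chromosome: Ctss at 95.53 Mb, Fcgr1 at 96.28 Mb, Tlr2 at 83.84 Mb and the cluster of Gbp7, Gbp3, Gbp2b and Gbp2 at 142.5 to 142.6 Mb, of which Gbp7 was picked after its values were seen. In Ch25h-/- libraries the 9 falls on chromosome 3 had log2 fold changes from -0.52 (Zgrf1) to -0.10 (Phtf1). Each was smaller in size than in Ch25h+/+, and none passed. There the value was 0.09 for Ctss, 0.47 for Gbp7, 0.12 for Gbp3 and -0.11 for Gbp2, against 6.47 for Gbp2b. The labels do not give the place of the transgene or the strain around it, and the share of this stretch in the values of Ctss and the Gbp genes was not tested. Off chromosome 3, Celf5, a neuronal splicing factor, fell by 0.34 on the log2 scale from 301 to 328 CPM to 221 to 267 CPM, a call lost without Tau+ replicate 4 or Tau- replicates 1 or 2.

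The 4 Tau+ libraries did not carry the changes in equal proportion. Of the 261 genes that rose, 167 were highest in Tau+ replicate 4 and 55 in replicate 1, against 21 and 18 in replicates 2 and 3. The antiviral effectors that rose were highest in replicate 1 in 17 of 22 cases. The disease-associated microglia genes were highest in replicate 4 in 19 of 21 cases, the complement genes in 9 of 9, and the reactive astrocyte genes in 11 of 17. Class II genes were highest in replicate 2 in 5 of 9 cases. As mean log2(CPM + 0.5) over all tested members, relative to the mean of Tau-, the antiviral list stood at 1.25, 0.86, 0.78 and 0.82 in Tau+ replicates 1 to 4. The disease-associated microglia list stood at 0.89, 1.08, 1.06 and 1.65, the class II list at 0.91, 1.80, 1.45 and 1.68, and the complement list at 0.63, 0.81, 0.88 and 1.23. Replicate 1 was thus highest for the antiviral list and lowest for the other 3, and it is the library with the strongest dependence on gene length, of opposite sign to that of Tau+ replicates 2 and 3. Its ion channel list stood at -0.42, against 0.03, 0.17 and -0.15 in the other Tau+ libraries. The share of that dependence in the list values was not tested. Tau- libraries lay between -0.14 and 0.18 for the antiviral list and between -0.11 and 0.12 for the disease-associated list.

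**Figure D5:**
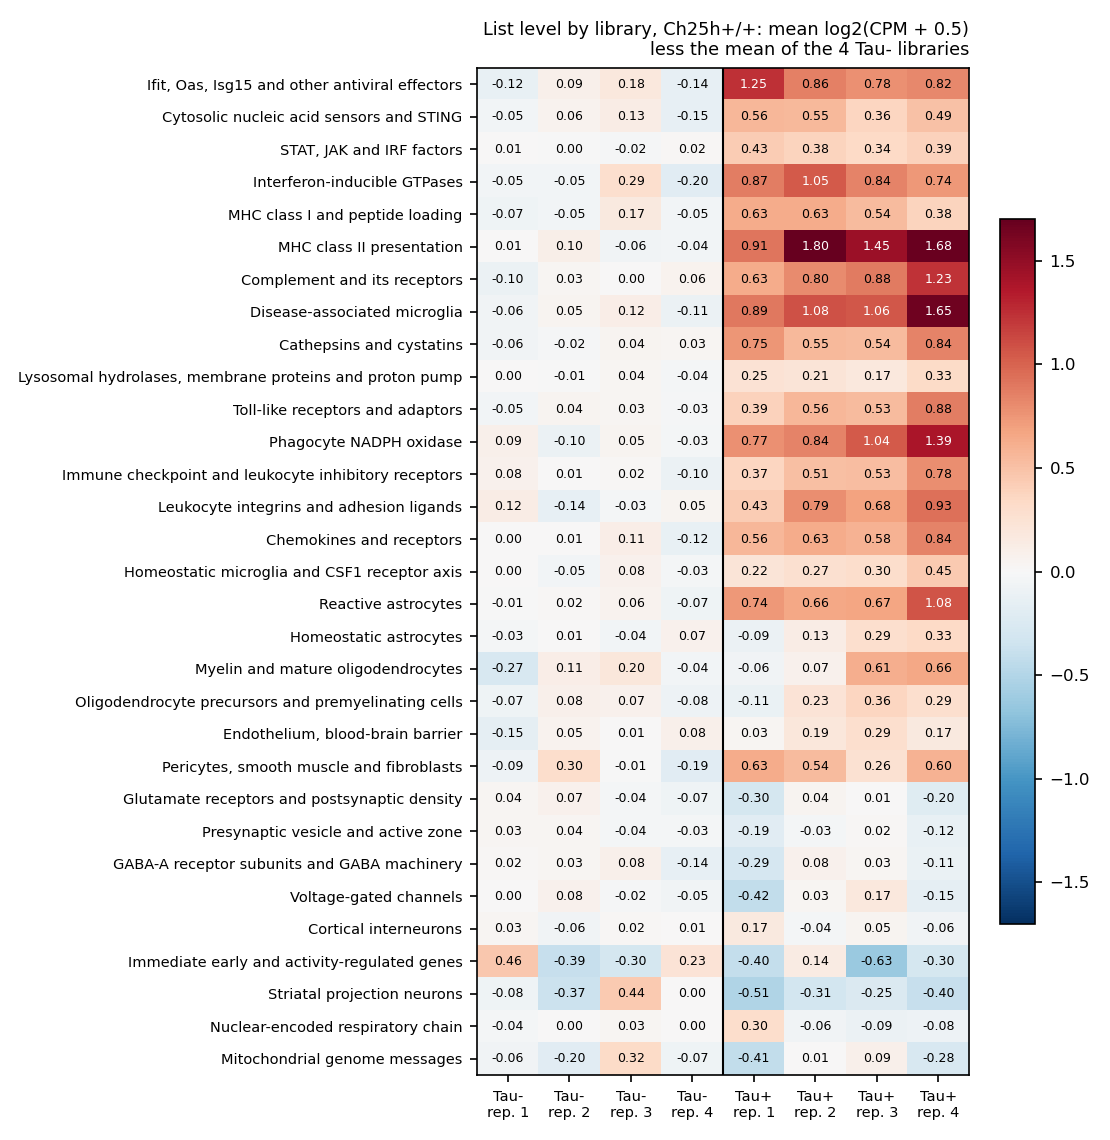
Mean log2(CPM + 0.5) over the tested members of 31 gene lists (rows) in each of the 8 libraries (columns), less the mean of the 4 Tau- libraries; red is higher and blue lower. Antiviral effectors are highest in Tau+ replicate 1 (1.25), disease-associated microglia and complement in replicate 4 (1.65 and 1.23), and the synaptic and channel lists are lowest in replicate 1.

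The size of the tau effect differed between the Ch25h genotypes for 6 of the 17736 genes tested (0.0338%; edgeR, interaction of tau and Ch25h genotype). The count was 55 with DESeq2, 57 in edgeR with no filter beyond 1 count, and 6 with limma-voom. For the 5 list members among them the effect was closer to 0 without Ch25h. In Ch25h-/- libraries tau changed 7 genes (0.0395%). For Cd74 the log2 fold change was 3.91 in Ch25h+/+ and 0.50 in Ch25h-/- libraries, a difference of -3.41 ± 0.58 (SE, adjusted p = 0.0405). For C1qa it was 1.35 and 0.09, a difference of -1.26 ± 0.20 (adjusted p = 0.0222). Ctss (1.28 and 0.09, adjusted p = 0.0131), H2-D1 (1.07 and 0.23, adjusted p = 0.0222) and Lag3 (1.73 and 0.44, adjusted p = 0.0335) showed the same direction. The other gene was Rps27rt, a copy of a ribosomal protein gene that is in no list and was picked after its values were seen, with 1.02 and -1.88. For lists the medians were 1.45 and 0.21 for class II, 1.27 and 0.25 for antiviral effectors, 0.93 and 0.21 for disease-associated microglia and 1.07 and 0.13 for reactive astrocytes, a difference that was not tested for lists. With 733 genes at an unadjusted p under 0.05 in all 16 libraries, the count of 6 in edgeR became 0 without Ch25h-/- Tau+ replicate 3 or replicate 4 (716 and 771 unadjusted). It was 3 when Ch25h-/- Tau- replicate 1 or one of Ch25h+/+ Tau- replicates 2, 3 and 4 was left out, 12 when Ch25h-/- Tau+ replicate 2 was, and 22 when Ch25h+/+ Tau+ replicate 1 was.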

How the data were processed

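Raw counts per gene and library were taken as deposited by the authors, 1 table of 54532 entries for 16 libraries, whole numbers with no normalization. Per the labels' protocols, column-purified RNA went into SMARTer mRNA libraries. The submitters' processing notes name STAR 2.7 and GRCm38/mm10; the counting program and its use of strand are not given in the sources used here, so overlapping, antisense and near-identical genes are uncertain. Groups follow the genotype labels, and replicate numbers follow record order and pair nothing.

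The filter was filterByExpr over 4 groups (17736 genes kept, 99.9% of counts). The two-sided quasi-likelihood F test of edgeR 4.0.16 (R 4.3.3, TMM scaling) was run on 16 libraries together, each group with its own mean. P-values were adjusted with the Benjamini-Hochberg method over all genes tested, at a threshold of 0.05. The steps were tested on simulated data. SE is the fold change divided by the square root of F. At the shallowest and deepest Tau+ library 3 counts equal 0.185 and 0.126 CPM. Counts of 3 or fewer in all libraries of a group were taken as the floor, which covers counting error only. Positions are from GENCODE M21 (GRCm38), promoters from RefSeq (GRCm38.p6), both matched by symbol.

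Gene lists and members were chosen with earlier results of these data known, and they are described by counts and medians with no test of the list. Lists share members, so their counts are not separate. Named genes are Ch25h, Prnp and Mapt, the key members of each list, up to 4 further changed members of each list in order of p, the 15 rises and 10 falls in no list with the smallest p, and up to 5 changed genes at the floor in 1 group; a few named genes and markers are not reported here, and others are said to be picked after their values were seen. Alternatives were RLE size factors, filters of at least 1 count in all or of a mean count of 50, limma-voom with quality weights (limma 3.58.1), DESeq2 1.42.0, the 8 libraries alone, and each library left out.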

Additional observations from a re-analysis of the deposited data

Results flagged for a closer look

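In 30 of the 558 groups of 4 libraries looked at (5.38%; chance gives about 1 in 20), 1 library's gap to the next, as a share of the group's range, was over the critical value of Dixon's test. In Tau+ replicate 1 the high values were Irf7 at 11.5 CPM, Ifit1 at 13.1 CPM, Ifit3 at 33.1 CPM, Isg15 at 9.36 CPM, Irgm1 at 19.6 CPM, Sst at 299 CPM, Cox4i1 at 504 CPM and Gm5900 at 2.16 CPM, and the respiratory chain list at 0.30 above the mean of Tau- on the log2 scale. In Tau+ replicate 4 the high values were Fcgr1 at 6.82 CPM, Unc93b1 at 36.2 CPM, Cd14 at 9.57 CPM, Cd68 at 24.5 CPM, Vim at 195 CPM and the interferon ligand and receptor list at 0.19, and Iigp1 was low at 2.66 CPM. In Tau+ replicate 2, Fcgr2b was low at 6.90 CPM and Fth1 at 1240 CPM, and Wfs1 was high at 160 CPM and Mettl14 at 15.6 CPM. In Tau+ replicate 3 the lincRNA 4930590L14Rik was high at 1.12 CPM.

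Among Tau- libraries, replicate 4 was low for Parp14 (1.91 CPM) and Gbp3 (3.07 CPM) and high for Mertk (52.4 CPM), Slc2a1 (166 CPM) and Hspa5 (256 CPM). Tau- replicate 1 was high for Lag3 (11.3 CPM) and low for Mbp (1120 CPM). Tau- replicate 3 was high for Tgfb1 (9.75 CPM) and for the class I list (0.17 above the mean of Tau-).

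The tau effect differed between the Ch25h genotypes in edgeR for C1qa, by -1.26 in Ch25h-/- relative to Ch25h+/+, for H2-D1 by -0.84, for Cd74 by -3.41, for Ctss by -1.19 and for Lag3 by -1.29 on the log2 scale.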

How the results depend on the processing

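The number of changed genes was 277 and became 424 with DESeq2 and 498 with limma-voom, and 160 to 297 when 1 library was left out. Rises (261) became 455 with limma-voom and 153 to 278 without 1 library. Falls (16) became 29 with no filter beyond 1 count, 41 with DESeq2, 43 with limma-voom, 9 in the 8 libraries alone and 7 to 19 without 1 library. Changed list members (148) numbered 102 to 152 without 1 library. The interaction count (6) became 57 with no filter beyond 1 count, 55 with DESeq2 and 0 to 22 without 1 library. DESeq2 called all of the 261 rises and 16 falls, and limma-voom 260 and 15 of them. In the 8 libraries alone 194 genes rose, 177 of them among the 261. Among genes with a mean of at least 50 counts 197 rose, 190 of them among the 261. With no filter beyond 1 count 358 rose, 250 of them among the 261. The lowest totals came without Tau+ replicate 4 (160) and Tau- replicate 1 (176), each a fit of fewer samples; further causes were not tested. Of 227 named genes tested, 100 of the 136 called stayed past the threshold in every one of the 14 alternatives in which they were tested, 36 lost it in at least 1, and 16 of the 91 others passed in at least 1; no called gene changed direction. Where 1 group is left with 3 libraries the spread is pooled over groups. No paired analysis was possible because the replicate numbers follow record order and the labels pair no libraries. At 3 counts, the floor lay at 0.126 to 0.185 CPM in Tau+ and 0.129 to 0.164 CPM in Tau-, so low chemokine and lymphocyte genes are limited by depth.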
